A study of Rattus norvegicus with 9 samples.

Results

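The genes examined were 10 genes of keratin filaments and of the cell surface that were grouped as mesothelial. The 10 were Krt7, Krt8, Krt18, Krt19, Msln, Upk3b, Upk1b, Lrrn4, Pdpn, and Cdh1. Not all are particular to mesothelium, as Cdh1 belongs to epithelial junctions in general and Pdpn also to many fibroblasts. They were chosen by name, with earlier results of these data known, and all 10 were found among the 35362 genes of the count table. Of the 14770 genes that passed the filter on low counts, 8 were among them, and Krt19 and Cdh1 did not pass. RNA was sequenced from adipose-derived mesenchymal stem cells (ASCs) of male Sprague Dawley rats aged 6 weeks. The rats carried no genetic change and had no experimental treatment, but all were fasted before the cells were isolated. The cells came from subcutaneous fat of the groin (SASCs), perirenal fat (PASCs), and epididymal fat (EASCs), and were grown in plastic wells to passage 3. Each group had 3 samples here. The methods give 6 rats and 6 wells a group, but the labels name no rat or culture for any sample. The titles of all samples share the prefix sd1, whose meaning is not given, so a shared animal or batch cannot be told. The p-values thus measure only the spread between these samples.

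Mesothelium is the flat cell layer that lines the abdominal cavity and covers visceral organs and visceral fat pads. Its cells derive from mesoderm, yet they carry keratin filaments like epithelial cells, together with surface proteins such as mesothelin. A keratin filament is built from pairs of an acidic type I and a basic type II chain, and simple epithelia and mesothelium typically pair Krt8 with Krt18 and Krt7 with Krt19. Subcutaneous fat has no such lining.

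The total count of a sample lay between 17591916 and 30299032, and 3 counts corresponded to 0.104 to 0.159 CPM, the count scaled to the size of the library after TMM normalization. Genes of ribosomal RNA took 10.4% to 15.5% of the counts in the SASCs, 22.4% to 32.9% in the PASCs, and 15.9% to 40.3% in EASCs. Markers of mesenchymal cells were high in every group. Thy1 was at 544.6 ± 12.4 CPM (SD, n = 3) in the SASCs, 776.7 ± 30.4 CPM in the PASCs, and 404.5 ± 6.97 CPM in EASCs, and Col1a1, a collagen chain of fibroblasts, was at 10700 ± 490 CPM, 19130 ± 2180 CPM, and 20330 ± 1430 CPM.

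Krt7, Krt8, Krt18, Upk3b, Lrrn4, and Msln were higher in both visceral groups than in SASCs, and no visceral sample overlapped the SASCs samples. How many of all genes tested were separated in this way was not counted. Pdpn was lower in both visceral groups, and Krt19 and Cdh1 were near the detection limit. A gene was called when its fold change was above 2 and its adjusted p-value in edgeR's quasi-likelihood test was under 0.05. In EASCs against SASCs, 6 of the 8 genes tested were called higher and 1 lower, while 13.6% of all genes tested were called higher and 14.2% lower. In PASCs against SASCs, 7 were called higher and 1 lower, against 12.0% and 14.9% of all genes. In EASCs against PASCs, 1 was called higher and 1 lower, against 5.19% and 2.20% of all genes. The counts called in other lists below are to be read beside these shares of all genes. Of all genes called, 48.8% were higher in EASCs and 44.7% in PASCs than in SASCs, and scaling by total counts in place of TMM gave 28.3% and 28.5%, with no member changing direction. The median log2 fold change of the 8 genes was 2.63, 2.02, and 0.01 in these comparisons, and that of all genes tested was 0.01, -0.01, and -0.01. Krt18 and Upk3b passed the filter only through the visceral groups and so had to differ, so the counts and medians of the 8 genes are a description only. Of the 6 other genes tested, 4 were called higher and 1 lower in EASCs, with a median of 1.80, and 5 higher and 1 lower in PASCs, with a median of 1.59. All were chosen with earlier results of these data known, so these values too are a description only. The comparisons with SASCs share the same 3 SASCs samples. In bulk RNA, fewer cells of a type and less RNA per cell cannot be told apart.

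**Figure D1:**
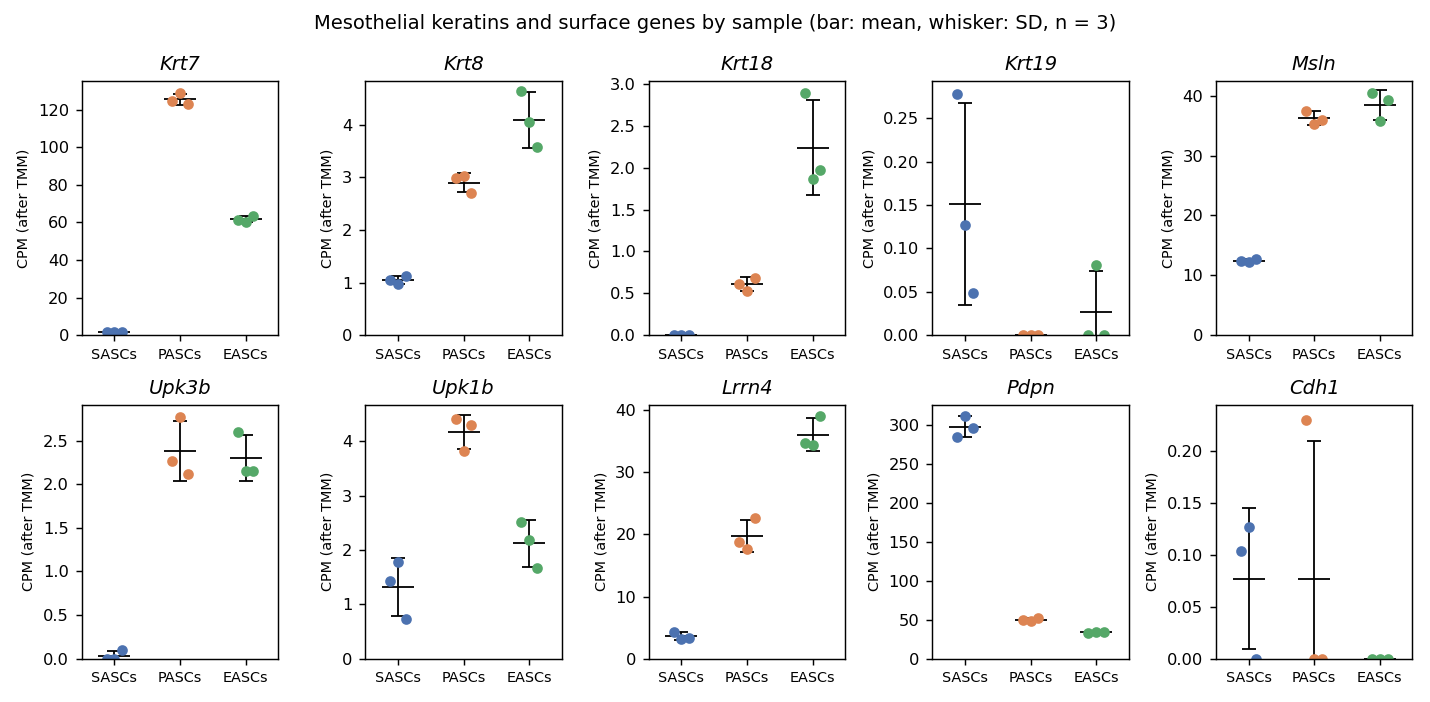
CPM after TMM (y axis, linear from 0) of the 10 genes in each of the 9 samples (points), with the mean (bar) and SD (whisker, n = 3) of SASCs, PASCs, and EASCs. Krt7 was highest in PASCs, Krt18 and Lrrn4 in EASCs, and Pdpn in SASCs, while Krt19 and Cdh1 stayed under 0.3 CPM in every sample.

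Krt7 codes for a type II keratin of simple and glandular epithelia and lies on the plus strand of chromosome 7 (143059734 to 143075907 in the rat genome rn6). Its level in samples 1 to 3 was 1.81, 1.91, and 1.56 CPM in the SASCs, 125, 129, and 123 CPM in the PASCs, and 61.4, 60.5, and 63.5 CPM in EASCs. The 3 groups were fully separated, in the order PASCs, EASCs, SASCs. The log2 fold change against SASCs was 6.15 (SE 0.0892, 70.9-fold, adjusted p = 1.45e-27) in PASCs and 5.12 (SE 0.0921, 34.8-fold, adjusted p = 5.54e-26) in EASCs. Krt7 was also lower in EASCs than in PASCs, with a log2 fold change of -1.03 (95% interval -1.14 to -0.91, adjusted p = 4.45e-14).

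Krt8 and Krt18 code for the type II and type I chains of the first keratin pair of the embryo and of simple epithelia. They are neighbours on chromosome 7 of rn6, Krt8 on the minus strand (143596511 to 143603745) and Krt18 on the plus strand (143629455 to 143633131). The 25709 bases between them hold 0 other genes of the table, so their starts face each other. Krt8 was at 1.04, 0.976, and 1.12 CPM in the SASCs, 2.98, 3.03, and 2.70 CPM in the PASCs, and 4.65, 4.05, and 3.58 CPM in EASCs. Each visceral sample was above every SASCs sample, and each EASCs sample was above every PASCs sample. Against SASCs, Krt8 had a log2 fold change of 1.97 (SE 0.232, adjusted p = 2.52e-08) in EASCs and 1.47 (SE 0.239, adjusted p = 4.6e-06) in PASCs, where limma on log2(CPM + 1) gave 0.93, below a 2-fold change. Between the visceral groups the difference of 0.49 (95% interval 0.07 to 0.91) did not pass the test (adjusted p = 0.0699).

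Krt18 had 0 counts in all 3 SASCs samples. In samples 1 to 3 it had 16, 14, and 13 counts in PASCs, or 0.612, 0.523, and 0.688 CPM, and 69, 46, and 44 counts in EASCs, or 2.89, 1.86, and 1.97 CPM. The 3 groups were thus fully separated, at low counts. Against a floor of 3 counts over the 3 SASCs samples, Krt18 was at least 54.4-fold higher in EASCs and at least 14.5-fold higher in PASCs. EASCs exceeded PASCs in Krt18 by a log2 fold change of 1.89 (95% interval 1.10 to 2.67, 3.70-fold, adjusted p = 0.000346), and was the member called higher in that comparison. On log2(CPM + 1) with limma, which compresses low values, Krt18 was no longer past 2-fold in EASCs against PASCs (1.00) or in PASCs against SASCs (0.68). Krt7, the member called lower there, moved in the other direction.

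Because Krt8 and Krt18 were higher together in the visceral groups, and Krt18 but not Krt8 was called between them, the DNA around both starts is shown here, with Upk3b and Pdpn as a gene that was higher and a gene that was lower. The sequences are from RefSeq on GRCr8, a later build than that of the counts, and run 5′ to 3′ on the strand of the gene from 250 bases before to 50 bases after its annotated start. They are Krt8 (chr7:135010290-135010589, minus strand), Krt18 (chr7:135035918-135036217, plus strand), Upk3b (chr12:26274191-26274490, minus strand), and Pdpn (chr5:160918910-160919209, minus strand). Capitals mark matches on either strand to TATAAA (the TATA box), GGGCGG (bound by Sp1), TGANTCA (bound by AP-1), or GGAATG (bound by TEAD factors).
Krt8: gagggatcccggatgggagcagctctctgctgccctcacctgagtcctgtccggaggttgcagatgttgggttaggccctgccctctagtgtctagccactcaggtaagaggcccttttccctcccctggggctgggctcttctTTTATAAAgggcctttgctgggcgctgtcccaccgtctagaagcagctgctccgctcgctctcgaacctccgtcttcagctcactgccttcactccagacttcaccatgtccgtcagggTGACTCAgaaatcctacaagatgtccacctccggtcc
Krt18: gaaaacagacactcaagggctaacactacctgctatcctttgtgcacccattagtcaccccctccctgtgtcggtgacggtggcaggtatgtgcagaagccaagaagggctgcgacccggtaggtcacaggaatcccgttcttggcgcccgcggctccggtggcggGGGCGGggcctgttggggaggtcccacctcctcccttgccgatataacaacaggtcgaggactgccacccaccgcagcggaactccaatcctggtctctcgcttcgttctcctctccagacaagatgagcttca
Upk3b: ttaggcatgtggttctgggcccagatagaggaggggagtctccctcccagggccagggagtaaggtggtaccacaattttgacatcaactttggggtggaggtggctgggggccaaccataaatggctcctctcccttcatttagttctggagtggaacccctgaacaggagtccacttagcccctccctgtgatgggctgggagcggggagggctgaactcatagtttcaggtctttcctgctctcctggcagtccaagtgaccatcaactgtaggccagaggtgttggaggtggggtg
Pdpn: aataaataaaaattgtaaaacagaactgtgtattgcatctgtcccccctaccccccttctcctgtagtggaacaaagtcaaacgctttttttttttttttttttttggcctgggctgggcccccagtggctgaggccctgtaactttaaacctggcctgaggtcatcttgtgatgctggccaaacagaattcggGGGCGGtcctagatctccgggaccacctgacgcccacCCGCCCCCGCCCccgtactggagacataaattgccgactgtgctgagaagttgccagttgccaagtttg
Of the 10 genes, 6 had an entry, and these windows were searched. TATAAA was found only in Krt8 among the 6 windows, with overlapping matches on both strands, and in 14.2% of all 33469 windows of this length. TGANTCA was found only in Krt8 as well, 13 bases after the start, and in 7.33% of all windows. GGGCGG was found in Krt18 and, with 3 matches, in Pdpn, and in 33.1% of all windows. GGAATG was found in Upk1b and Lrrn4, on the strand opposite to the gene, and in 14.2% of all windows. Upk3b held none of these letters in its window. These matches describe the letters alone, and binding was not measured.

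Krt19, the type I keratin usually paired with Krt7, lies on the minus strand of chromosome 10 (88055843 to 88060560). It had 8, 3, and 1 counts in the SASCs, 0 in each PASCs sample, and 0, 2, and 0 in EASCs. The few counts were thus mostly in SASCs, the reverse of Krt7. Krt19 did not pass the filter, and in a fit without the filter it was called in PASCs (adjusted p = 0.0358) but did not pass the test in EASCs (adjusted p = 0.246), each against SASCs. The ratio of SASCs to EASCs was 5.84, with an exact counting interval of 1.30 to 53.8, and SASCs were at least 3.94-fold higher than PASCs. Intervals and floors of this kind cover counting error only.

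The levels of the keratins were compared per length, as CPM per kilobase of the gene length in the table. On this scale Krt7 was at 60.1 in PASCs and 29.5 in EASCs, Krt8 at 1.74 and 2.46, and Krt18 at 0.444 and 1.64. Krt7 was thus far above both Krt8 and Krt18 in the visceral groups, whereas Krt7 (0.840) and Krt8 (0.629) were close to each other in SASCs. Summed over the 21 type II keratin genes of the table, the level was 1.69 ± 0.118 (SD, n = 3) in the SASCs, 62.7 ± 1.58 in the PASCs, and 32.8 ± 0.588 in EASCs. Summed over the 26 type I genes, it was 0.529 ± 0.169, 1.81 ± 0.55, and 2.35 ± 0.141. Type II keratin RNA was in excess in every sample, and the ratio of type II to type I was 2.53 to 3.99 in the SASCs, 25.3 to 46.8 in the PASCs, and 13.1 to 14.6 in EASCs. Krt7 alone made up 47.0% to 51.5% of the type II sum in the SASCs, 95.5% to 96.0% in the PASCs, and 89.3% to 90.9% in EASCs. These are levels of RNA, and keratin protein was not measured.

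**Figure D2:**
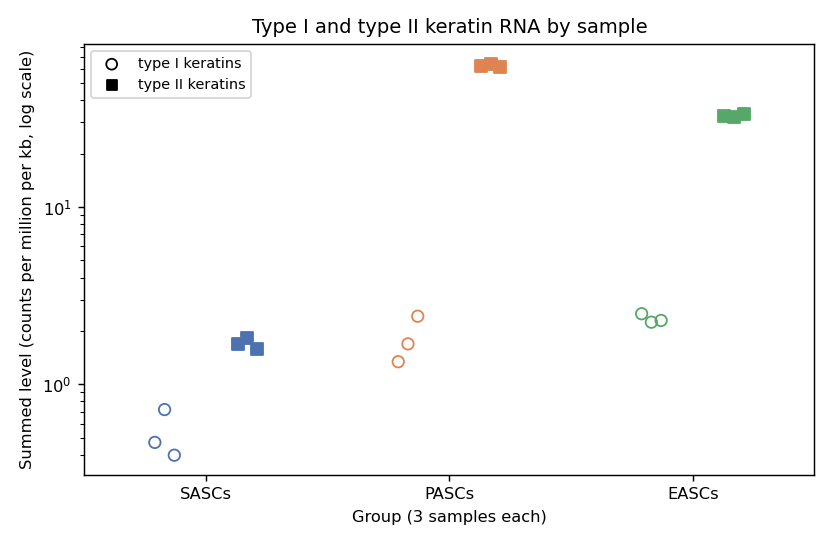
Summed level of type I (open circles) and type II (filled squares) keratin RNA in each of the 9 samples, in CPM per kilobase on a log y axis, by group (x axis). Type II was above type I in every sample, and the gap was wider in PASCs (ratio 25.3 to 46.8) and EASCs (13.1 to 14.6) than in SASCs (2.53 to 3.99).

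Of 12 other keratin genes in the table that were listed for comparison, 3 were tested. Krt14, the type I keratin of basal epidermal cells, had 0 counts in SASCs and was at 1.495 ± 0.694 CPM (SD, n = 3) in PASCs and 0.553 ± 0.3 CPM in EASCs. It was at least 34.5-fold and at least 13.3-fold higher than in SASCs, and it was called lower in EASCs than in PASCs with a log2 fold change of -1.41 (adjusted p = 0.0264). Krt80 rose by a log2 fold change of 1.64 in PASCs and 1.51 in EASCs, at under 1 CPM in each group mean. Krt14 and Krt80, like Bnc1, Pax8, Cdh3, and Pkp2 described further on, were below the filter in every SASCs sample and passed it only through the visceral groups, so they too had to differ from SASCs. Krt10, of differentiated epidermis, was not called in any comparison. Krt1, Krt4, Krt13, Krt15, and Krt16, keratins of stratified epithelia, had 0 counts in all 9 samples.

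Msln codes for mesothelin, a surface protein that is anchored in the membrane by a lipid, and lies on the minus strand of chromosome 10 (15119700 to 15129129). It was at 12.4, 12.2, and 12.7 CPM in the SASCs, 37.5, 35.3, and 35.9 CPM in the PASCs, and 40.5, 35.7, and 39.3 CPM in EASCs. SASCs were well separated from both visceral groups, and PASCs and EASCs overlapped. Msln was higher by a log2 fold change of 1.54 (SE 0.0802, 2.91-fold, adjusted p = 1.13e-15) in PASCs and 1.63 (SE 0.0800, 3.09-fold, adjusted p = 2.98e-16) in EASCs, and the difference of EASCs to PASCs was 0.09 (95% interval -0.06 to 0.24, adjusted p = 0.411). Msln was clearly detected in SASCs, where its level per length, 5.64, was above that of every other member but Pdpn. A neighbouring related gene, Mslnl, had 14 to 43 counts per sample, and how reads matching both were counted is not given in the sources used here.

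Upk3b and Upk1b code for uroplakins, membrane proteins known from the plaques of the bladder surface, and Upk3b is also a marker of mesothelium. Upk3b (minus strand of chromosome 12, 23676169 to 23682394) had 0, 0, and 2 counts in the SASCs, 59, 74, and 40 in the PASCs, and 62, 53, and 48 in EASCs. It was near 0 in SASCs, and the samples of the visceral groups overlapped at 2.12 to 2.77 CPM. The ratio to SASCs was 87.7 (exact counting interval 23.9 to 730) in PASCs and 83.7 (22.8 to 697) in EASCs. Both ratios rest on the 2 counts of SASCs sample 3. Without that sample the folds were at least 42-fold and at least 40.1-fold, and without SASCs sample 1 the ratios were 53.1 (14.5 to 442) and 50.6 (13.8 to 422). The log2 fold change of EASCs to PASCs was -0.06 (95% interval -0.63 to 0.52, adjusted p = 0.905).

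Upk1b (plus strand of chromosome 11, 64522008 to 64553234) was at 1.43, 1.78, and 0.732 CPM in the SASCs, 4.40, 3.81, and 4.29 CPM in the PASCs, and 2.51, 2.19, and 1.66 CPM in EASCs. PASCs stood above the other groups, whereas EASCs overlapped SASCs. The log2 fold change against SASCs was 1.64 (SE 0.261, adjusted p = 3.51e-06) in PASCs and 0.67 (95% interval 0.10 to 1.24, adjusted p = 0.0342) in EASCs, the latter below a 2-fold change. The difference in EASCs did not pass the test with total counts in place of TMM (0.28, adjusted p = 0.434), with only the 2 groups fitted (adjusted p = 0.0554), or without SASCs sample 3, EASCs sample 1, or EASCs sample 2 (adjusted p = 0.181, 0.134, and 0.068). In EASCs against PASCs it was -0.97 (95% interval -1.48 to -0.46, adjusted p = 0.00317), also just below a 2-fold change. It passed a 2-fold change without PASCs sample 2 (-1.03) or without EASCs sample 1 (-1.11). None of the 3 other uroplakin genes was tested, and their summed level stayed below 0.4 CPM in every sample, with Upk3a at 0.

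Lrrn4 codes for a membrane protein with leucine-rich repeats that is used as a mesothelial marker, and lies on the minus strand of chromosome 3 (125521879 to 125547630). It was at 4.38, 3.23, and 3.27 CPM in the SASCs, 18.7, 17.7, and 22.6 CPM in the PASCs, and 34.7, 34.3, and 39.0 CPM in EASCs. The 3 groups were fully separated in the order EASCs, PASCs, SASCs, which is the order of Krt18 and differs from that of Krt7. The log2 fold change against SASCs was 3.29 (SE 0.122, 9.79-fold, adjusted p = 5.34e-19) in EASCs and 2.41 (SE 0.127, 5.31-fold, adjusted p = 1.41e-15) in PASCs, and EASCs were above PASCs by 0.88 (95% interval 0.68 to 1.09, adjusted p = 6.23e-08), less than 2-fold. Lrrn4 overlaps Crls1 on the other strand, which had 230 to 373 counts per sample, and whether reads were counted by strand is not given in the sources used here.

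Pdpn codes for podoplanin, a mucin-type surface protein of mesothelium, lymphatic endothelium, and many fibroblasts, and lies on the minus strand of chromosome 5 (161947137 to 161981441). It was at 285, 312, and 296 CPM in the SASCs, 49.8, 48.0, and 52.2 CPM in the PASCs, and 33.0, 34.2, and 34.7 CPM in EASCs. The groups were fully separated, with SASCs highest, whereas Msln, Upk3b, and Lrrn4 were lowest in SASCs. Pdpn had a log2 fold change of -2.58 (SE 0.0582, 5.96-fold lower, adjusted p = 9.44e-24) in PASCs and -3.13 (SE 0.0603, 8.77-fold lower, adjusted p = 2.25e-25) in EASCs, and EASCs were below PASCs by a log2 fold change of -0.56 (95% interval -0.68 to -0.43, adjusted p = 3.23e-08). Pdpn was the most abundant of the 10 genes per length in SASCs (160) and the second to Krt7 in PASCs (26.9) and in EASCs (18.3).

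Most markers of endothelium were also lower in PASCs. Their summed level over 8 genes was 53.1 to 56.0 CPM in the SASCs, 13.8 to 17.2 CPM in the PASCs, and 35.5 to 40.1 CPM in EASCs, and 7 of the 8 were called lower and 1 higher in PASCs, and 1 lower and 1 higher in EASCs. In EASCs against PASCs, 5 of the 8 were called higher and 0 lower, the other direction to Pdpn. Lyve1, among the 7, was below the filter in every PASCs sample. The gene called higher in both was Tek, a receptor of angiopoietins, which went against Pdpn, with a log2 fold change of 1.71 in PASCs and 1.66 in EASCs (adjusted p = 1.28e-10 and 2.31e-10). Kdr, Pecam1, and Cdh5, among the 7, had log2 fold changes of -3.45, -3.20, and -2.99 in PASCs. In EASCs these genes were at -2.26, -0.71, and 0.09. Of the lymphatic markers, Lyve1 was at 0.9117 ± 0.313 CPM (SD, n = 3) in the SASCs, 0.07846 ± 0.0795 CPM in the PASCs, and 0.5084 ± 0.221 CPM in EASCs. Prox1 was at 1.113 ± 0.00957 CPM, 0.4476 ± 0.209 CPM, and 0.7191 ± 0.429 CPM. The part of these endothelial genes in the difference of Pdpn was not tested. Of 5 tested partners of podoplanin at the membrane, Msn, which links membrane proteins to actin, rose by a log2 fold change of 2.13 in PASCs and 2.23 in EASCs (adjusted p = 2.95e-22 and 9.9e-23). Ezr, of the same family, rose in PASCs (1.03, adjusted p = 1.34e-13) and was at 0.26 in EASCs, with a difference of EASCs to PASCs of -0.77 (adjusted p = 2.53e-10), and Cd9, a tetraspanin, fell in EASCs (-1.47, adjusted p = 2.84e-16, against -0.38 in PASCs). In EASCs against PASCs, 0 of the 5 were called higher and 1 lower. Clec1b, the platelet receptor of podoplanin, had 2 counts in all 9 samples together.

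Cdh1 codes for E-cadherin, the adhesion protein of epithelial junctions, and lies on the plus strand of chromosome 19 (38768467 to 38838395). It had 3, 3, and 0 counts in the SASCs, 6, 0, and 0 in the PASCs, and 0 in each EASCs sample, and did not pass the filter. All counts of PASCs were in sample 1. Without the filter, Cdh1 was called in no comparison (adjusted p = 0.116 in EASCs and 1 in PASCs against SASCs, and 0.207 in EASCs against PASCs), so no difference was detectable at this depth. Cdh3, P-cadherin, was at 0.1144 ± 0.04 CPM (SD, n = 3) in the SASCs, 37.71 ± 2.99 CPM in the PASCs, and 65.81 ± 1.86 CPM in EASCs (log2 fold change 8.35 and 9.16 against SASCs). Cdh2, N-cadherin, which mesothelium also carries, was at 67.32 ± 3.54 CPM, 46.52 ± 2.9 CPM, and 131.6 ± 2.01 CPM, and of the 3 comparisons was called in EASCs against PASCs (1.5, adjusted p = 4.05e-17). Of the 7 cadherins and catenins tested, 2 were called higher in each visceral group, Cdh3 and Cdh11, and Jup, plakoglobin, was called lower in PASCs (-1.53, adjusted p = 4.3e-17).

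Keratin filaments end at desmosomes, and genes of these junctions were compared as well. Of 6 linker genes tested, 3 were called higher and 1 lower in each visceral group against SASCs. Of all genes tested, 13.6% were called higher and 14.2% lower in EASCs, and 12.0% and 14.9% in PASCs. Pkp2, among the 3, passed the filter only through the visceral groups. Pkp2, a plakophilin, was at 0.0789 ± 0.0714 CPM (SD, n = 3) in the SASCs, 12.19 ± 0.144 CPM in the PASCs, and 6.06 ± 0.76 CPM in EASCs. Dsp, desmoplakin, which binds keratin filaments, rose by a log2 fold change of 4.02 in PASCs and 2.24 in EASCs (adjusted p = 1.02e-13 and 1.41e-07). Both genes had the order of Krt7, with PASCs above EASCs above SASCs, and both were called lower in EASCs than in PASCs (-1.01 for Pkp2 and -1.78 for Dsp, adjusted p = 4.81e-06 and 6.16e-08). Pkp1 rose by 2.49 and 3.87 (adjusted p = 7.48e-21 and 2.22e-25), with EASCs highest. Ppl, periplakin, fell by 3.09 in PASCs and by 4.74 in EASCs on the log2 scale (adjusted p = 9.06e-20 and 2.81e-22).

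**Figure D3:**
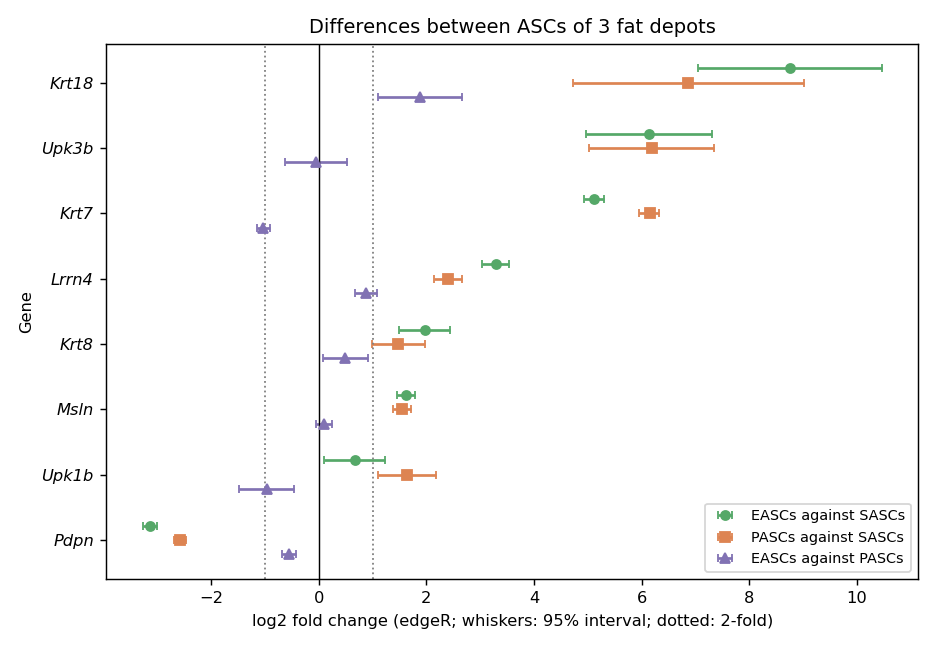
Log2 fold change (x axis) with its 95% interval (whiskers) of the 8 genes tested, by gene (y axis), for EASCs against SASCs, PASCs against SASCs, and EASCs against PASCs, with dotted lines at a 2-fold change. Krt7 lay at 5.12 and 6.15 against SASCs and Pdpn at -3.13 and -2.58, and the fitted values of Krt18 and Upk3b depend on the near absence of counts in SASCs.

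Of 10 other genes of mesothelium that were listed for comparison, 7 were tested, and 4 were called higher and 1 lower in EASCs, and 4 higher and 2 lower in PASCs, each against SASCs. Leaving out Bnc1, which passed the filter only through the visceral groups, 3 of 6 were called higher in each, and the median log2 fold change was 1.75 in EASCs and 0.90 in PASCs. Wt1, a transcription factor of mesothelium and its progenitors, was at 1.913 ± 0.0881 CPM (SD, n = 3) in the SASCs, 35.98 ± 1.22 CPM in the PASCs, and 53.74 ± 2.1 CPM in EASCs (log2 fold change 4.23 and 4.81, adjusted p = 4.69e-23 and 1.36e-24). Nkain4 rose by 2.36 in PASCs and 5.08 in EASCs (adjusted p = 2.59e-09 and 1.5e-18), and Rspo1, a secreted enhancer of Wnt signaling, by 1.67 and 2.86 (adjusted p = 1.38e-11 and 2.74e-17). The 3 genes Wt1, Nkain4, and Rspo1 had the order of Lrrn4 and Krt18, with EASCs highest. Bnc1 was higher at low counts (10, 31, and 41 counts over the 3 samples of SASCs, PASCs, and EASCs). Aldh1a2, an enzyme of retinoic acid synthesis, fell in PASCs (-2.58, adjusted p = 3.26e-07) and was at 0.42 in EASCs (adjusted p = 0.162), and Cldn15, a claudin, fell in both (-1.33 and -1.80, adjusted p = 8.56e-10 and 4.53e-12). Calb2, calretinin, a marker used in diagnosis of mesothelial cells, had 0 counts in all 9 samples, and Muc16 had 0, 5, and 4 counts over SASCs, PASCs, and EASCs.

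**Figure D4:**
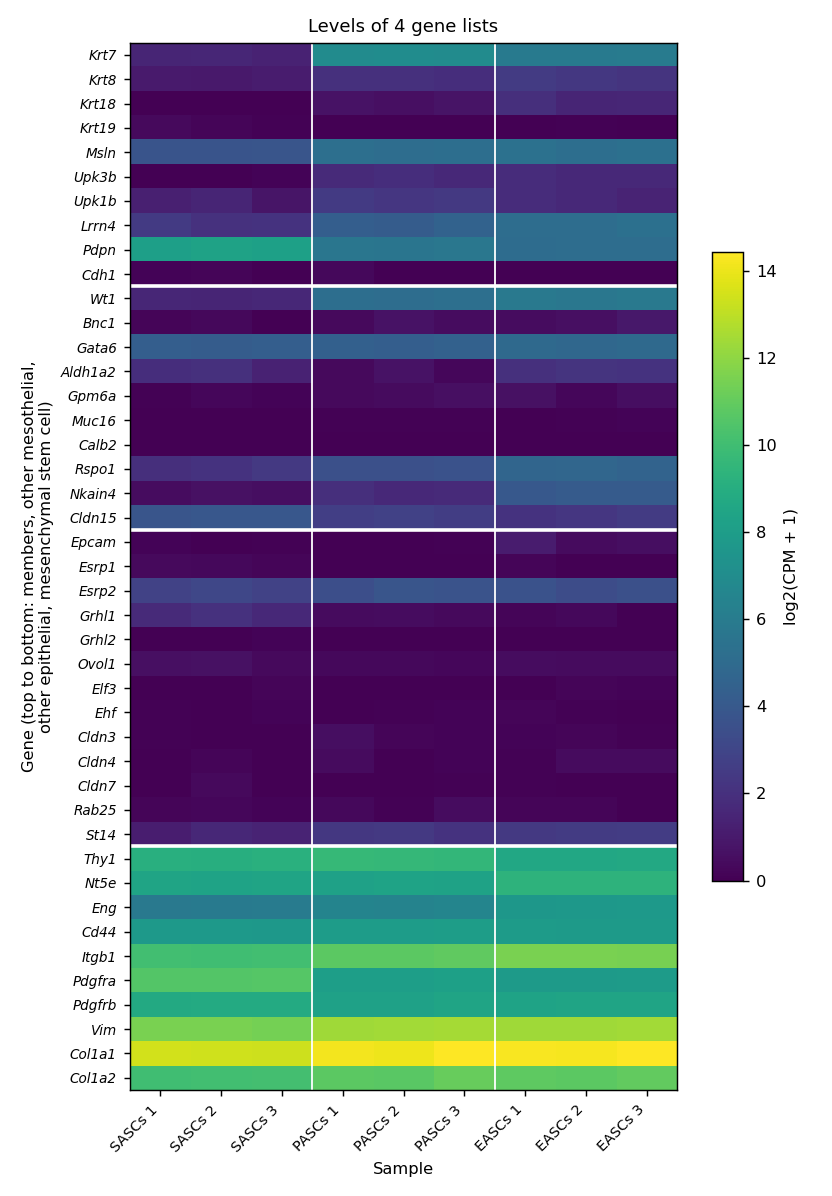
Level as log2(CPM + 1) (color) of the 10 genes, other mesothelial genes, other epithelial genes, and mesenchymal stem cell markers (y axis) in each of the 9 samples (x axis). Krt7, Msln, Lrrn4, and Wt1 were brighter in the 6 visceral samples, most of the other epithelial genes were dark throughout, and mesenchymal markers were bright in all 9.

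Genes of other epithelia were mostly near 0. Of 13 genes listed, 3 were tested, with 1 called higher and 1 lower in each visceral group against SASCs. St14, a membrane protease, rose by a log2 fold change of 1.27 in PASCs and 1.5 in EASCs (adjusted p = 1.16e-05 and 8.08e-07), and Grhl1, an epidermal transcription factor, had 184 counts over the 3 samples of SASCs, 25 over PASCs, and 9 over EASCs. Grhl1 passed the filter only through SASCs and so had to differ. Esrp2, the third gene tested, was at 6.584 ± 0.625 CPM in the SASCs, 11.61 ± 1.39 CPM in the PASCs, and 10.42 ± 1.05 CPM in EASCs. Its log2 fold change was 0.82 in PASCs and 0.66 in EASCs (adjusted p = 2.84e-06 and 5.92e-05), below a 2-fold change. Epcam, the surface marker of most epithelia, had 4 counts over SASCs, 1 over PASCs, and 27, 9, and 10 in EASCs samples 1 to 3, so that sample 1 held most of them, and was not tested. Because perirenal and epididymal fat lie beside epithelial organs, 10 genes of kidney and epididymis were also listed. Umod, Slc12a1, Aqp2, Crisp1, Adam7, and Defb1 had 0 counts in all 9 samples. Pax8, a transcription factor of the kidney, rose by 3.05 in PASCs and 3.39 in EASCs from 6 counts over the 3 samples of SASCs to 53 and 65 counts. Aqp1, a water channel found in kidney, mesothelium, and endothelium, fell by 1.19 and by 2.60 (adjusted p = 3.58e-15 and 3.6e-22). Lcn2 rose in EASCs (1.69, adjusted p = 0.00163), and in PASCs, where every sample was below the filter, it had 6 counts against 31 in SASCs.

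Other markers also differed between the groups. The summed level of 6 leukocyte genes was 48.6 to 53.1 CPM in the SASCs, 118 to 123 CPM in the PASCs, and 171 to 182 CPM in EASCs, the order of Lrrn4 and Krt18. Of these 6 genes, 5 were called higher in EASCs and 3 in PASCs. Lyz2, a lysozyme of macrophages, was at 10.42 ± 1.26 CPM (SD, n = 3) in the SASCs, 58.12 ± 2.23 CPM in the PASCs, and 85.55 ± 4.81 CPM in EASCs, and Ptprc, the common leukocyte antigen, at 1.018 ± 0.252, 1.619 ± 0.265, and 3.064 ± 0.202 CPM. Of 10 mesenchymal stem cell markers, 2 were called higher and 1 lower in EASCs, and 0 higher and 1 lower in PASCs. The marker called lower in both was Pdgfra, a growth factor receptor of fibroblasts and adipocyte progenitors, at 1543 ± 37.0 CPM in the SASCs, 277.9 ± 17.6 CPM in the PASCs, and 234.6 ± 8.46 CPM in EASCs (log2 fold change -2.47 and -2.72, adjusted p = 3.5e-23 and 4.19e-24). The part of these other cells and markers in the differences of the mesothelial genes was not tested.

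Within the set, 3 orders of level occurred, with PASCs highest for Krt7 and Upk1b, EASCs highest for Krt8, Krt18, and Lrrn4, and SASCs highest for Pdpn. For Krt8 the neighbours PASCs and EASCs did not differ past the test, and Msln and Upk3b had visceral groups that overlapped. Per length, the order in SASCs was Pdpn (160), Msln (5.64), Krt7 (0.840), Upk1b (0.663), Krt8 (0.629), and Lrrn4 (0.619). In PASCs it was Krt7 (60.1), Pdpn (26.9), Msln (16.4), Lrrn4 (3.36), Upk1b (2.11), Upk3b (2.01), and Krt8 (1.74), and in EASCs Krt7 (29.5), Pdpn (18.3), Msln (17.4), Lrrn4 (6.15), Krt8 (2.46), Upk3b (1.94), Krt18 (1.64), and Upk1b (1.07).

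Across the 9 samples, which fall into the 3 depots and share that grouping, the Pearson correlation of log2(CPM + 1) was 0.99 for Msln with Upk3b, 0.98 for Krt7 with Upk3b, and 0.93 for Krt8 with Krt18. It was 0.68 for Krt7 with Krt18 and 0.27 for Upk1b with Krt18, and for Pdpn it was negative with each of the other 7 genes (-0.99 to -0.63). Among all genes tested, the patterns most like that of Krt7 were those of Ccnb1, Mcm6, and Rad18 (0.9996, 0.9992, and 0.999). Those most like Krt8 were Ccdc175, Pik3r5, and Gtf2b (0.9968, 0.9959, and 0.9932), and those most like Krt18 were Jkamp, Nes, and Tfpi2 (0.9888, 0.9887, and 0.9875). For Msln they included Eif2b2 and Emd (0.9988 and 0.9978). For Upk3b they were Agpat5, Gpt2, and Mapre1 (0.9972, 0.9971, and 0.9958), and for Upk1b Tnfaip8l1, Pkdcc, and Snrnp40 (0.9817, 0.9804, and 0.9778). For Lrrn4 they were Zdhhc2, Ltbp2, and Amotl2 (0.9987, 0.9984, and 0.9973), and for Pdpn Mmp2, Anpep, and LOC102549037 (0.9997, 0.9996, and 0.9988). LOC102549037 overlaps Mmp2 on the other strand, with the same limit as for Lrrn4 and Crls1. With 3 groups of 3 samples such values mainly restate the order and spacing of the groups.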

How the data were processed

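RNA of 9 samples, 3 each of SASCs, PASCs, and EASCs, was sequenced by the study. The authors trimmed the reads, aligned them with TopHat2 to the rat genome, and deposited whole-number counts per gene that were not normalized. The methods name rn6 and the submitters' processing notes rn5. The table's positions reach close to the chromosome ends of rn6, which was taken as the build. The counting tool and its treatment of strand, duplicates, and reads matching several genes are not given in the sources used here.

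In R 4.3.3, counts were filtered with filterByExpr and normalized by TMM (factors 0.74 to 1.23), and one model of the 3 groups was fitted to all samples with edgeR 4.0.16 (glmQLFit and glmQLFTest). P-values were adjusted over 14770 genes by Benjamini-Hochberg within each comparison. CPM used TMM, and levels per length used the table's gene length. For a group with 0 counts, folds were set against 3 counts over the group, and for ratios with few counts exact binomial intervals at 0.95 were used. On counts simulated for EASCs against SASCs over 14770 genes, 195 of 200 genes changed by 2 on the log2 scale were recovered (97.5%), with 1 unchanged gene called. Every simulated gene had the same spread, and all genes but the 200 were left unchanged, unlike in these data. The simulation thus checks the code and does not give the error rate of these results.

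Replicates of each group differed by more than counting error. With counts scaled by their totals and without TMM, chi-square divided by its degrees of freedom was 6.04 to 272. Unequal shares of ribosomal RNA between samples enter these values. After TMM, the common coefficient of variation beyond counting error was 0.0685 in the edgeR fit. Over all genes tested, deviations of samples with the same replicate number were close to uncorrelated.

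The members and lists were chosen with earlier results of these data known. The genes named were the 10 members, at most 4 genes of each list with the largest change against SASCs among those tested, defining markers at or near 0, genes that overlap a member, and the 3 genes most like each tested member over the 9 samples. One gene most like Msln is not reported here. Bnc1, Cldn15, Thy1, Prox1, Tek, and Mslnl were named outside this rule, after their values were seen.

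The alternatives were DESeq2 1.42.0, limma 3.58.1 on log2(CPM + 1), total counts without TMM, no filter on low counts, only the 2 groups compared, an adjusted p-value at any fold, the replicate number as a block, and leaving out each sample in turn. Sequences were RefSeq promoters on GRCr8. No genome was used here, and metabolite data were not analysed here.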

Additional observations from a re-analysis of the deposited data

How the results depend on the processing

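Over the log2 fold changes of the 8 genes tested under the alternatives, 353 values kept their direction and their side of the threshold, 3 became weaker, 3 stronger, and 1 reversed. The number of the 8 genes called stayed at 7 in EASCs against SASCs and 8 in PASCs against SASCs when each sample was left out in turn, and ranged from 2 to 3 in EASCs against PASCs (2 with all samples). The third gene was Upk1b, called without PASCs sample 2 (-1.03) or EASCs sample 1 (-1.11). The reversal was Upk3b in EASCs against PASCs, which was -0.06 with all samples and ranged from -0.15 (without EASCs sample 1) to 0.07 (without PASCs sample 2), none past the test. Against SASCs, Upk1b in EASCs (0.67) lost its adjusted p-value under total counts, with only the 2 groups fitted, and without SASCs sample 3 or EASCs sample 1 or 2, and the fitted value of Upk3b ranged from 5.5 to 8.81 in EASCs and 5.56 to 8.87 in PASCs over the samples left out.

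In EASCs against PASCs, limma on log2(CPM + 1) called 1 gene, and an adjusted p-value at any fold called 5. Under limma, which compresses low values, Krt8 (0.93) and Krt18 (0.68) fell below a 2-fold change in PASCs against SASCs, as did Krt18 (1.00) in EASCs against PASCs. Over all genes limma called 2648 in place of 4105 in EASCs against SASCs, 2542 in place of 3979 in PASCs against SASCs, and 506 in place of 1091 in EASCs against PASCs. Total counts without TMM moved the median of all genes to -0.39, -0.33, and -0.08, and called 3 members in EASCs against PASCs, with Upk1b at -1.03. Without the filter, 9 members were called in PASCs against SASCs, the added gene being Krt19 (adjusted p = 0.0358), while Krt19 in EASCs (0.246) and Cdh1 in either visceral group (0.116 and 1) were not called against SASCs.

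The replicate number as a replicate block gave 7, 8, and 2 members called and changed no call of a member. Same-numbered samples had deviations correlated at -0.0301 to 0.0712 over all genes tested. This showed no pairing by number, but cannot exclude a shared source with a weak effect or an effect on few genes. Depth limits Krt18, Krt19, Upk3b, and Cdh1, which had few or 0 counts in at least 1 group.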
